A study of Mus musculus with 24 samples.

Results

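Protein-protected sites (PPSs), the stretches of RNA that bound proteins shield from nucleases, were followed through erythroid differentiation of MEL cells, and 7065 sites were found that were absent before induction, present at day 2 and still present in both replicates at day 4. These sites gained and kept after induction are 16.2% of the 43631 replicated PPSs of day 4 and come from lists that hold 460777 PPSs in all. They were spread over 2789 genes, with the most in Sptb. Members made up 28.1% of the replicated day 4 sites of genes with known erythroid functions, and they touched coding sequence less often than the sites that were present throughout (29.7% against 39.1%).

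The members were chosen by the PPS calls themselves. A member is a day 4 PPS that is not 20 to 40 nt long (the size of a ribosome footprint), that merges calls of replicate 1 and replicate 2, that shares at least 1 nt of the same strand with a day 2 PPS outside that size range, and that overlaps no day 0 PPS of any length. Further sets of replicated day 4 sites served for comparison. The 19949 constant sites overlapped a PPS at day 2 and at day 0, and the 6317 sites of day 4 only overlapped none of either day. The other 10300 replicated sites met neither description. The number of members rests on the replicates, since it was 11611 and 11375 when replicate 1 or 2 was left out of the day 0 list, 4662 without day 2 replicate 2, and 12670 and 14197 when replicate 1 or 2 was left out at day 4, so that 1 replicate sufficed there.

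The cells were MEL cells, a mouse erythroleukemia line arrested at the proerythroblast stage, grown without DMSO (day 0) or for 2 or 4 days in medium with 2% DMSO, and crosslinked with formaldehyde. Each of 2 replicates per day was digested with an ssRNase (RNaseONE, which cuts single-stranded RNA) or a dsRNase (RNase V1, which cuts paired RNA), either while proteins still covered the RNA or after they had been removed. This gave 24 libraries in 12 groups of 2, and the comparison of protein-covered with protein-free digests gave 4 call sets per day, 1 for each nuclease and replicate. One list of PPSs per day, merged over its 8 libraries, holds the calls, and the source of each call is known from its name.

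Red cell precursors shut down much of their transcription as they mature, and RNA-binding proteins that control splicing, stability and translation then set much of what the cell makes. Maturing erythroid cells build a spectrin and ankyrin skeleton under the membrane, import iron into mitochondria and assemble heme and globin into hemoglobin. A footprint in an intron reports protein on unspliced or nuclear RNA, while one in an exon can report either the precursor or the mature message.

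Some of the sites on which the account below rests are printed here, read 5′ to 3′ on the transcribed strand from the GRCm38 (mm10) RefSeq assembly. Capitals mark the stretch that the day 2 PPS covered as well, and lower case the rest of the day 4 site. An intron of Sptb (beta spectrin) is shown because this gene held the most members.

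Sptb intron, chr12:76684322-76684516, minus strand: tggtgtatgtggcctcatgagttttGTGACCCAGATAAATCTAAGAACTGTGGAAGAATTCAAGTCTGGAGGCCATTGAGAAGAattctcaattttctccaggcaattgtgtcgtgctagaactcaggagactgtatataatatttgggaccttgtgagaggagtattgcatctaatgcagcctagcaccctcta

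The highest-scoring intronic members of Slc25a37 (mitoferrin-1, the mitochondrial iron importer) and Cpeb4 (a cytoplasmic polyadenylation element-binding protein that regulates translation) follow, since both scored high, 79.6 and 55.6, against a median of 16.8 for all members.

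Slc25a37 intron, chr14:69245428-69245572, minus strand: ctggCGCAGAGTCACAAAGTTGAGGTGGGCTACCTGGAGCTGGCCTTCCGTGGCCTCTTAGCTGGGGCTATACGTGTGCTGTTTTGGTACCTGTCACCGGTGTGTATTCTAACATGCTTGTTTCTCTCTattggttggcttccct

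Cpeb4 intron, chr11:31906154-31906221, plus strand: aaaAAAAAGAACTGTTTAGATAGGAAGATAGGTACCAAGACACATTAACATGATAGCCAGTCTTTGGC

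A coding site of each nuclease group is shown next. The Abcb10 site (a mitochondrial transporter of the heme pathway) had ssRNase calls only, and the Alas2 site (the erythroid enzyme that starts heme synthesis) had dsRNase calls only.

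Abcb10 CDS, chr8:123962993-123963061, minus strand: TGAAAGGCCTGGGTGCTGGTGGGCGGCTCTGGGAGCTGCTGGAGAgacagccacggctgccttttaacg

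Alas2 CDS, chrX:150563828-150563924, plus strand: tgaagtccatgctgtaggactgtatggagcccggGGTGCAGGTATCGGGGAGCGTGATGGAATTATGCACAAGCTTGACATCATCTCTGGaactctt

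The intronic members of the adult beta-globin genes Hbb-bs and Hbb-bt are shown because all 71 of their bases are the same. Both carried the same score, 23.21, the same calls at day 4 and the same calls at day 2, and the reads behind them cannot be assigned to either gene.

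Hbb-bs intron, chr7:103827303-103827373, minus strand: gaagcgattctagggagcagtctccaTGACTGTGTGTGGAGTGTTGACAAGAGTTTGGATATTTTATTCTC

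Hbb-bt intron, chr7:103813294-103813364, minus strand: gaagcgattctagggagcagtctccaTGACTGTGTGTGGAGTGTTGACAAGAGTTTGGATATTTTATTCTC

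The last sequence lies outside the genes of GENCODE, in the largest group of such members, and was picked after its values were seen.

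Chromosome 5 cluster, chr5:136667558-136667754, plus strand: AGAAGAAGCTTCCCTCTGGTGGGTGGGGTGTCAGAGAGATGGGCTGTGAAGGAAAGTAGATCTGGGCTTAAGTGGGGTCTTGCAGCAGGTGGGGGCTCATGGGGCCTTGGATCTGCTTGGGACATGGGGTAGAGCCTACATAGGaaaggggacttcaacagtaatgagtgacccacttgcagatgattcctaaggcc

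The read depth of a library cannot be read from these lists, and the lists hold no RNA levels, so more RNA of a gene and more protein on each RNA cannot be told apart in any value below. Day 0 gave 138689 PPSs, day 2 gave 169575 and day 4 gave 152513, and ssRNase and dsRNase calls did not keep the same proportion. PPSs with an ssRNase call numbered 81634 ± 11367 at day 2 and 52931 ± 554 at day 4, and those with a dsRNase call 30650 ± 14256 and 58590 ± 11308 (SD, n = 2). Strand use was uneven in 1 replicate. Of the PPSs with a call of day 0 replicate 2, 60.6% lay on the plus strand, against 51.7% for day 0 replicate 1 and from 47.6% to 51.4% for the replicates of day 2 and day 4. Of the members, 43.6% lay on the plus strand (Wilson 95% interval 42.5 to 44.8), and of the constant sites 50.2% (49.5 to 50.8). The part of the day 0 strand imbalance in the choice of members was not tested, and the results are therefore also given by strand where that moves them. All intervals cover counting error only, and PPSs are not replicates of a condition.

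Few sites lay within 5 nt of the overlap limits of the rule. Of the 43631 replicated day 4 sites, 27014 overlapped a day 2 PPS of the allowed sizes and 15214 overlapped no day 0 PPS. A further 1832 sites without a day 0 overlap met only a day 2 PPS of 20 to 40 nt and were left out. Just inside the limits, 90 members shared 1 to 5 nt with their day 2 site (median score 15.3), 152 members lay within 5 nt of a day 0 site (median score 16.8), and 29 members were 41 nt long (median score 12.2). Just outside, 116 constant sites shared only 1 to 5 nt with a day 0 site (median score 15.2), and 19 sites of 40 nt met every other condition (median score 13.6). The score is the authors' enrichment of protein-covered over protein-free coverage, and that of a merged PPS behaves as the sum of its calls' scores, starting at 5.4 for 1 call and 10.8 for 2. Most members stood near other protein-bound RNA. The median distance to the closest day 0 PPS on the same strand was 514 nt, and 22.1% of members lay within 100 nt of one.

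Members were of middling size and score. Their median length was 79 nt (quartiles 63 and 104), between 92 nt for constant sites and 68 nt for sites of day 4 only, and their lengths ran from 11 to 648 nt. The median score was 16.8 for members, 20.8 for constant sites and 13.8 for sites of day 4 only. Since lengths and scores come from the calls that chose the groups, this is a description. Of the members, 4622 merged 2 calls, 1769 merged 3 and 674 merged 4 or more.

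Genes were assigned to 6546 members (92.7%), 1 gene a site, the shortest protein-coding gene of GENCODE release M21 on its strand where there was one. The members fell in 2709 protein-coding genes, which is 27.3% of the 9935 protein-coding genes with a PPS at any day. Spread was wide, as 57.7% of the genes with a member held 1 only. Yet 80 genes held 10 or more, and these 80 genes carried 1476 members, or 20.9% of all. Most genes with a member had protein-bound RNA before induction, as did most genes with any PPS. Of the genes with a member, 95.9% had a day 0 PPS assigned to them elsewhere and 73.9% held a constant site too. Of the 9935 protein-coding genes with a PPS at any day, only 1067 had no day 0 PPS. The share with a constant site has no such comparison here.

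The 10 protein-coding genes with the most members carried 436 of them, and 9 of these genes are described here. Sptb, the beta chain of the erythroid spectrin skeleton (chr12:76580488-76710547, minus strand), held 84 members. Its PPSs numbered 23 in day 0 replicate 1 and 28 in replicate 2, 167 and 167 at day 2, and 288 and 276 at day 4. Both day 0 counts lay far below all 4 later counts. Of the 178 replicated day 4 sites of Sptb, 84 (47.2%) were members, 13 were constant and 60 were of day 4 only. Between 21 and 60 kb from the gene's 5′ end there was no PPS before induction, and 48 were called at day 2 and then 84 at day 4, of which 20 were members. That stretch was chosen after its sites were seen.

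Ank1, the ankyrin that ties spectrin to the membrane, held 48 members. Its PPSs numbered 46 and 51 at day 0, 161 and 158 at day 2, and 238 and 177 at day 4 in replicates 1 and 2. Prkar2b, a regulatory subunit of protein kinase A, held 42 members, which is 57.5% of its 73 replicated day 4 sites. It had 9 and 7 PPSs at day 0, and 157 and 130 at day 4. Cpeb4 held 38 members, with 7 and 8 PPSs at day 0, 51 and 74 at day 2, and 179 and 154 at day 4. For these genes, too, all later replicates lay above both day 0 replicates. The Cpeb4 RNA had more sites of day 4 only (48) than members, whereas Prkar2b had fewer (18).

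The remaining genes of the 10 were bound widely before induction. Asap1, a GTPase-activating protein of the Arf family, held 39 members beside 122 constant sites. Zfpm1 (FOG-1, the cofactor of GATA-1) held 31 members beside 69 constant sites, and Gse1 29 beside 80. Mtss1, a protein of the actin cytoskeleton, held 30 and Epb41 (protein 4.1, which joins spectrin to actin) 28. In Asap1 the members were 17.4% of the replicated day 4 sites, close to the 16.2% of all such sites, so that its count goes with the large number of its PPSs. Since the genes were ranked by the count of members, their shift from day 0 to day 4 follows in part from that choice, and it carries no test.

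**Figure D1:**
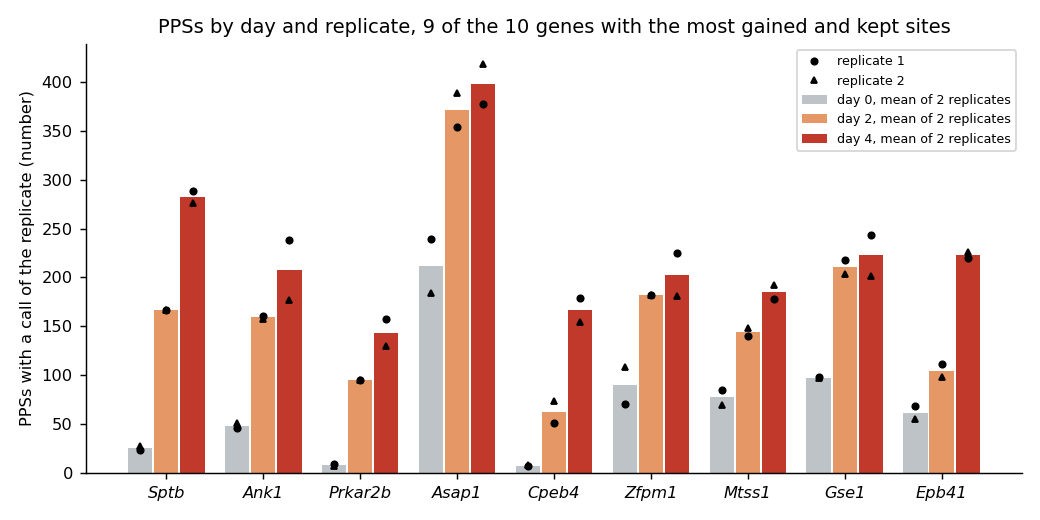
PPSs per gene (number, vertical axis) in 9 of the 10 genes with the most gained and kept sites, where bars are the mean of 2 replicates at day 0, day 2 and day 4 and the points are replicate 1 (circles) and replicate 2 (triangles). In each gene both day 4 replicates lie above both day 0 replicates, from 23 and 28 to 288 and 276 in Sptb and from 7 and 8 to 179 and 154 in Cpeb4.

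**Figure D2:**
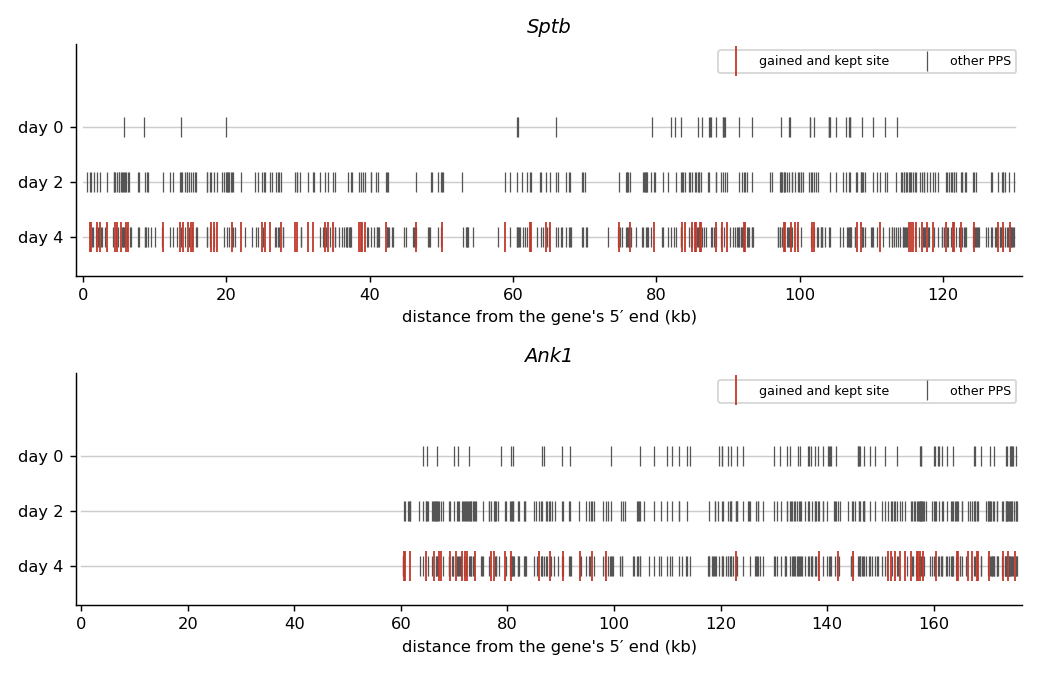
Midpoints of the PPSs of Sptb and Ank1 against the distance from the gene's 5′ end in kb, with 1 row per day, the 84 Sptb and 48 Ank1 gained and kept sites as tall red marks and all other PPSs as grey marks. In Sptb no day 0 PPS lies between 21 and 60 kb, where day 4 has 84.

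The erythroid gene lists were set with earlier results of these data known and were compared by counts. Of their 128 genes with a PPS at any day, 79 (61.7%) held a member, against 27.3% of all protein-coding genes with a PPS. That share of genes was not particular to them, as it was 57.6% for the SR and hnRNP genes (19 of 33) and 51.7% for regulators of mRNA stability and translation (15 of 29), which are described further on. They held 580 members among 2062 replicated day 4 sites (28.1%), against 16.2% of all replicated day 4 sites. The median number of members per gene with a PPS was 1 in these lists and 0 over all protein-coding genes. Counts per gene grow with its number of PPSs, so the share of replicated sites is given for each list. The rule chose the sites by the same calls, and these shares are a description. They rest in part on a few genes. Leaving out the 2 genes with the most members in each list, a step chosen after seeing the data, gave 29.4% for the membrane and skeleton list, 27.6% for terminal maturation, 22.8% for heme synthesis, 12.1% for iron handling and 11.3% for the transcription factors.

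The red cell membrane and skeleton list held 276 members among 781 replicated sites (35.3%), in 18 of its 28 genes with a PPS. Beside Sptb, Ank1 and Epb41, Gypc (glycophorin C) held 17 members among 38 replicated sites. Its PPSs numbered 5 and 6 at day 0, 42 and 34 at day 2, and 62 and 63 at day 4. Epb42 (protein 4.2) went from 0 PPSs at day 0 to 16 and 21, and 4 of its 5 replicated sites were members. Slc4a1 (band 3, the anion exchanger) went against this pattern, with no PPS until day 4, when it had 12, so that its 4 replicated sites were all of day 4 only. Epb42 and Slc4a1 fell outside the rule for named genes and were chosen after their values were seen.

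Heme synthesis genes held 53 members among 139 replicated sites (38.1%), in 8 of 13 genes. Fech (ferrochelatase, the last enzyme, which inserts iron) held 21, with 6 and 6 PPSs at day 0, 41 and 47 at day 2, and 66 and 65 at day 4. Alad (the second enzyme) held 14 of its 22 replicated sites as members, with 4 and 3 PPSs at day 0 and 38 and 28 at day 4. Alas2 held 7 members and 8 sites of day 4 only, and Ppox 4 members and 9 constant sites.

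Iron handling genes held 69 members among 250 replicated sites (27.6%). Slc25a37 and Abcb10 supplied 25 each, Fam210b and Tfrc 4 each. Without the first pair the list held 19 members among 157 replicated sites (12.1%), below the 16.2% of all such sites. Slc25a37 had 16 and 14 PPSs at day 0, 53 and 55 at day 2, and 88 and 73 at day 4. Abcb10 had 10 and 4, then 44 and 48, then 67 and 64. Tfrc (the transferrin receptor) stood apart from both, with 31 and 38 PPSs at day 0 and 55 and 48 at day 4, and 19 of its 36 replicated sites were constant. Within the Slc25a37 count, 12 members shared a 30-base stretch with a member in Gm16867, a copy of the gene, and reads with up to 10 alignments were kept by the authors.

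The globin genes gave few sites. Of 6 globin genes with a PPS, 5 held a member, 7 of 17 replicated sites in all. Hba-a2 (an adult alpha-globin gene) had 0 PPSs at day 0 and 5 at day 2 and day 4 each, and all 3 of its replicated sites were members. Its strongest, over coding sequence and intron at chr11:32296903-32297088, scored 83.19. Hba-a1, its near copy, was the exception, with 5 PPSs at day 0 and 3 replicated sites that were all constant. The 2 genes share most of their sequence, and reads of one can be placed on the other, so this contrast cannot be told apart from read placement. Hba-a1 was named after its values were seen. Hbq1b (theta-globin) held 1 member, and the members of Hbb-bs and Hbb-bt are the identical pair printed above, each counted among the 7.

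The list of terminal maturation and survival held 76 members among 258 replicated sites (29.5%). Ell2 (a transcription elongation factor) held 24, with 8 and 14 PPSs at day 0 and 156 and 121 at day 4. Car2 (carbonic anhydrase 2) held 7, and Eif2ak1 (HRI, the heme-regulated kinase of eIF2alpha) 5. Btg2 (an antiproliferative partner of the CCR4-NOT deadenylase) had 0 PPSs at day 0, 6 and 12 at day 2 and 15 and 13 at day 4. Its 5 members all touched the 3′ UTR, and 1 of them, a site of 200 nt with 2 calls in each of the 4 sets, scored 99.39.

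The erythroid transcription factors did not stand out, with 99 members among 617 replicated sites (16.0%). Foxo3 (a forkhead factor of late erythroid maturation) held 21 members beside 15 constant sites. Runx1 held 11 beside 101 and Tal1 7 beside 18. Gata1 had 13 PPSs at day 0 and 17 at day 4, and none of its 5 replicated sites was a member. Gata1 was named after its values were seen.

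Outside the erythroid lists, the regulators of mRNA stability and translation held 99 members among 492 replicated sites (20.1%), of which Cpeb4 gave 38, Tnrc6b (a GW182 protein of microRNA silencing) 20 and Msi2 10. Without Cpeb4 and Tnrc6b, a step chosen after seeing the data, the list held 41 among 331 (12.4%). That is below the 16.2% of all replicated day 4 sites. The splicing factor genes of the SR and hnRNP families held 39 among 474 (8.23%), with Hnrnpm at 9 and Tra2a, Srsf10 and Hnrnpc at 3 each. Proliferation and progenitor genes held 7 among 92 (7.61%), in 6 of 20 genes with a PPS. Cdk6, which drives the cell cycle in progenitors, had 86 and 120 PPSs at day 0, 51 and 48 at day 2, and 38 and 23 at day 4, and its single member lay 1 nt from a day 0 PPS. The single Mcm2 member abutted a day 0 PPS. Ccnd2 held 2 members and Npm1 1.

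Most markers of other blood lineages had few or no sites of any kind, with Itga2b as the exception. Of 14 myeloid markers, 4 had a PPS at any day, but they had 0 replicated day 4 sites, so that none could hold a member. Mpo, the defining granule enzyme, had 0 PPSs at each day. Of 12 megakaryocyte markers, 5 had a PPS, and 3 members in Itga2b were the only ones among their 35 replicated sites (8.57%). Mpo was taken as an example after its values were seen. Of 11 erythroid markers that could be matched, 10 had a PPS and 7 held a member, with 31 members among 141 replicated sites (22.0%). The erythroid markers partly recur in the lists above.

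**Figure D3:**
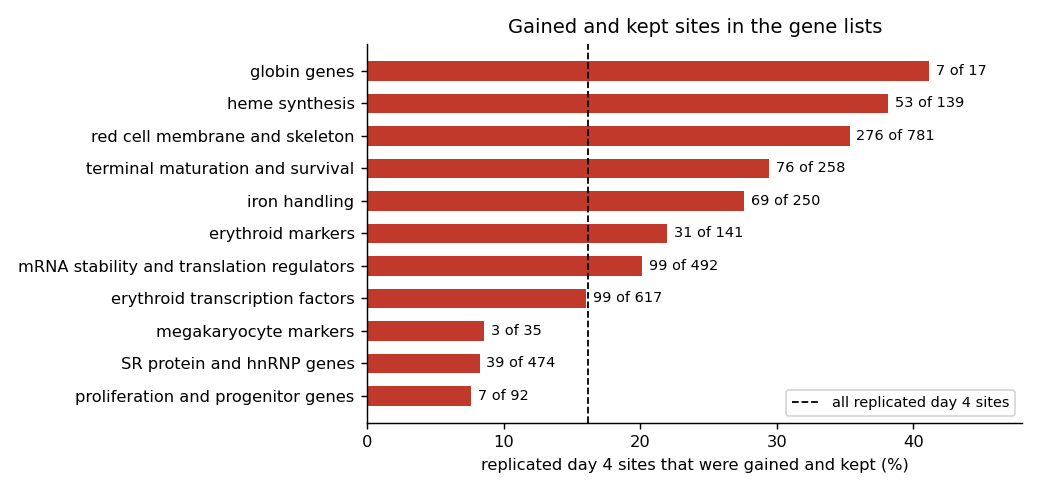
Share of the replicated day 4 sites of each gene list that were gained and kept (percent, horizontal axis), with the counts beside each bar and the share over all replicated day 4 sites as the dashed line at 16.2%. Globin, heme and membrane genes lie between 35.3% and 41.2%, erythroid transcription factors at 16.0%, and SR and hnRNP genes and proliferation genes at 8.23% and 7.61%. The myeloid markers had no replicated site and are not drawn.

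Few members marked RNAs that were without any site before induction. Of the 6546 members in genes, 219 (3.35%, Wilson 95% interval 2.94 to 3.81) lay in a gene with no day 0 PPS on its strand. These were 110 genes, where a day 0 PPS counted for each gene that it overlapped and not for its assigned gene alone. The share was 2.02% and 2.06% when replicate 1 or 2 was left out of the day 0 list that chooses members. Genes were still judged by the full day 0 list there. The members so added overlap a PPS of that full list, so the lower shares follow from the setting and are no check. For sites of day 4 only the share was 3.87%, and the difference was -0.525 percentage points (Newcombe 95% interval -1.19 to 0.134), an interval that holds 0. Apol11b, a member of the apolipoprotein L family, held the most, with 17 members in a gene with 0 PPSs at day 0, 21 and 22 at day 2 and 32 and 32 at day 4. Its intron held the highest-scoring intronic member, 104.32. Of these 17 members, 10 shared a 30-base stretch with members of Apol11a, so that they cannot be counted as separate events. Cdhr4 (11 members) and Mxd4 (10 members) followed among genes with 0 PPSs at day 0, both named after their values were seen.

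The transcript regions of the members were compared with those of constant sites, with a site counted in each class it touched. A CDS was touched by 29.7% of members and 39.1% of constant sites. The difference was -9.41 percentage points (Newcombe 95% interval -10.7 to -8.14). It was close to this in each call set, at -8.62 and -9.83 points among sites with an ssRNase call of replicate 1 and 2, and -9.85 and -9.36 points among sites with a dsRNase call. Sites that met the rule in 1 day 4 replicate only, and so are no members, differed alike, by -9.50 points for replicate 1 and -9.05 points for replicate 2 against constant sites of the same replicate. These sets share the day 2 and day 0 lists with the members. The difference was -3.38 points when day 0 replicate 2 was left out of the list that defines absence, and -7.11 points without day 0 replicate 1, so that its size rests on which day 0 calls are used.

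Sites wholly outside annotated exons showed the opposite order. Introns without any exon held 44.5% of members and 33.6% of constant sites, a difference of 10.9 percentage points (9.57 to 12.2). Among sites of 41 to 100 nt it was 8.42 points (6.80 to 10.04), with lengths not matched within that range, while on the plus strand it was 8.39 points and on the minus strand 12.99 points. Without day 0 replicate 2 it was 6.52 points. Counted as any touch of an intron, the shares were 62.7% and 58.9% and the difference was 3.79 points (2.47 to 5.10). That smaller difference lay at 0.336 points for plus-strand sites (-1.65 to 2.31), at 6.56 points for minus-strand sites and at 0.775 points without day 0 replicate 2.

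The 3′ UTR was touched by 17.8% of members, 19.5% of constant sites and 22.5% of sites of day 4 only. Against constant sites the difference was -1.65 points (-2.69 to -0.594), but it was 0.582 points when each site was given a single class by priority, and 0.329 points without day 0 replicate 1. Against sites of day 4 only it was -4.74 points (-6.10 to -3.37), but -1.49 points (-2.28 to -0.698) without day 4 replicate 2, -2.81 points without day 4 replicate 1 and -2.35 points without day 2 replicate 2. The 5′ UTR was touched by 3.82% of members, 5.33% of constant sites and 1.98% of sites of day 4 only. Noncoding exons were touched by 1.68%, 4.03% and 1.57%, and 5.51%, 4.03% and 5.60% lay in no gene on either strand.

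**Figure D4:**
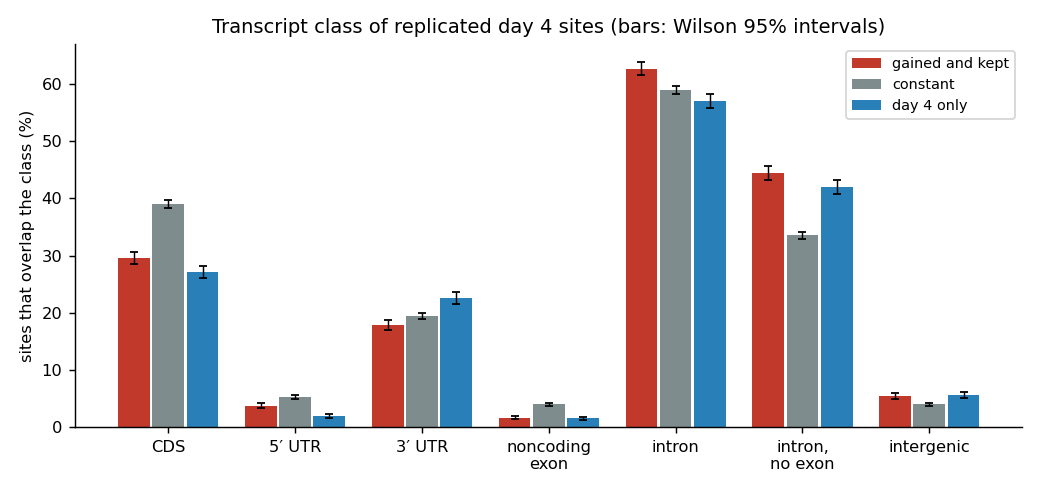
Share of sites that overlap each transcript class (percent, vertical axis) for gained and kept, constant and day 4 only sites, with Wilson 95% intervals as error bars. Members lie near sites of day 4 only for CDS (29.7% against 27.1%) and below constant sites (39.1%), and above constant sites for introns without an exon (44.5% against 33.6%).

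Nuclease use at day 4 set members apart from sites of day 4 only more than from constant sites. A call of ssRNase replicate 1 was present at 66.5% of members and of replicate 2 at 73.2%, a mean of 69.9% ± 4.76 (SD, n = 2). For constant sites these were 72.6% and 77.1%, and for sites of day 4 only 45.8% and 53.9%. A dsRNase call of replicate 1 was present at 54.2% of members and of replicate 2 at 44.2%, against 56.3% and 47.1% of constant sites and 65.1% and 56.5% of sites of day 4 only. Over all 43631 replicated sites the shares were 62.5% and 68.5% for ssRNase and 59.6% and 50.7% for dsRNase. Members lay above sites of day 4 only in both ssRNase sets and below them in both dsRNase sets. They lay below constant sites in all 4 sets, with differences of -6.13 points (Newcombe 95% interval -7.40 to -4.88) and -3.88 points (-5.07 to -2.70) for ssRNase and -2.18 points (-3.53 to -0.832) and -2.94 points (-4.29 to -1.59) for dsRNase. Members also merged fewer calls a site than constant sites, a mean of 2.48 against 2.79. Calls of all 4 sets were present at 6.03% of members and 10.7% of constant sites. The part of this in the 4 differences was not tested. With 2 replicates against 2, an exact permutation test cannot give a two-sided p below 0.333, and no test was made.

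Counted by pattern, 32.1% of members had ssRNase calls only, 15.8% dsRNase calls only and 52.0% both. The share with ssRNase calls only differed from constant sites by 0.700 points (Newcombe 95% interval -0.558 to 1.97) and the share with dsRNase calls only by 2.28 points (1.32 to 3.27). The first had no stable sign, at 5.26 points (4.22 to 6.30) without day 4 replicate 1 and 7.53 points (6.10 to 8.96) with members taken from the day 2 list, but -2.65 points (-4.19 to -1.04) among sites at or above the median score and -2.39 points (-3.96 to -0.797) among those of 41 to 100 nt. The second was 9.42 points (8.54 to 10.3) without day 4 replicate 2 and 6.36 points without day 4 replicate 1. It was -0.336 points when day 0 sites within 100 nt also barred a member, -0.629 points among sites at or above the median score and -0.240 points with members from the day 2 list. Against sites of day 4 only, the share with dsRNase calls only differed by -18.0 points (-19.5 to -16.6). This was -27.9 points without day 4 replicate 2, -12.5 points without day 2 replicate 2 and -9.50 points at or above the median score. Members need a day 2 PPS and the day 2 list held fewer sites with a dsRNase call than the day 4 list, as given above. The part of that imbalance in this difference was not tested.

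The pattern of calls went with the region. Of the 2270 members with ssRNase calls only, 47.05% lay in introns without an exon and 12.2% touched a 3′ UTR. Of the 1119 members with dsRNase calls only, 27.8% lay in introns without an exon (Wilson 95% interval 25.2 to 30.5) and 33.9% touched a 3′ UTR (31.2 to 36.7). The 3676 members with calls of both lay closer to the first, at 47.9% and 16.4%. Among constant sites with dsRNase calls only, 13.9% lay in introns without an exon (12.6 to 15.2), which is below the interval of members of this nuclease group, and among sites of day 4 only it was 31.3%. The members lay above constant sites in the other call patterns too, as those held 39.1% with ssRNase calls only and 35.2% with calls of both. Map3k13, a kinase upstream of JNK, carried the highest-scoring member with ssRNase calls only (68.81, in an intron), and Csf2rb2, a beta subunit of the IL-3 receptor, the highest with dsRNase calls only (57.63, in the 3′ UTR). Of the 26 Csf2rb2 members, 5 shared a 30-base stretch with a distant member, and 5 pairs of sites were shared with Csf2rb. Whether the 3′ UTR site was among them is not given here.

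**Figure D5:**
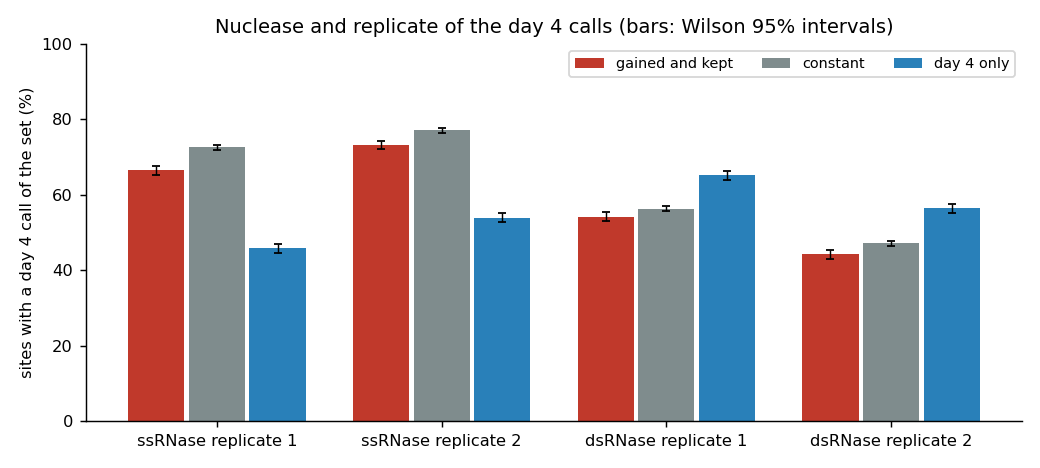
Share of sites with a day 4 call of each nuclease and replicate (percent, vertical axis) for the 3 groups of replicated day 4 sites, with Wilson 95% intervals as error bars. Members lie at 66.5% and 73.2% for ssRNase and 54.2% and 44.2% for dsRNase, and sites of day 4 only at 45.8% and 53.9% and at 65.1% and 56.5%.

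The day 2 sites beneath the members were weaker than those beneath constant sites. A day 2 PPS with calls of both replicates underlay 39.8% of members and 57.2% of constant sites, a difference of -17.4 points (Newcombe 95% interval -18.7 to -16.04). The median score of the strongest overlapped day 2 PPS was 11.7 for members and 16.3 for constant sites. A day 2 ssRNase call was present under 84.3% of members and a day 2 dsRNase call under 38.1%. Of members with ssRNase calls only at day 4, 94.5% had a day 2 ssRNase call and 25.2% a day 2 dsRNase call, and for constant sites the first share was 96.3%. Under members with dsRNase calls only at day 4, a day 2 dsRNase call was present at 64.97% and an ssRNase call at 54.96%. The corresponding constant sites had 79.4% and 48.4%, and the dsRNase difference was -14.4 points (-17.6 to -11.3). The day 2 list held more ssRNase than dsRNase sites, as given above, and the part of this in these shares was not tested.

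The rule asks for calls of both replicates at day 4 but not at day 2, and merging calls lengthens a site, so lengths at the 2 days are given as a description. The median length was 63 nt for the day 2 site and 79 nt for the day 4 site, the day 4 site was the longer at 69.3% of members, and the day 2 PPSs covered a median of 73.2% of each member. Constant sites behaved much alike in this respect, with 67.7% longer at day 4, a difference of 1.54 points (0.274 to 2.79). More than 1 day 2 PPS was overlapped by 4.91% of members and 11.9% of constant sites.

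Along protein-coding genes the members gathered at both ends, as the constant sites did. When genes were divided into 10 equal parts, the first held 11.7% of members and the last 16.5%, while each part between held from 7.88% to 10.7%. The first and last parts held 11.5% and 15.0% of constant sites, and 8.34% and 22.3% of sites of day 4 only. Against sites of day 4 only, the difference was 3.40 points in the first part (2.32 to 4.46) and -5.83 points in the last (-7.25 to -4.41). Against constant sites the differences were 0.263 points (-0.639 to 1.196) and 1.44 points (0.407 to 2.51).

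The 519 members in no gene of their strand were grouped by distance, and no such grouping of other sites is given for comparison. When members up to 10000 nt apart were joined they formed 226 groups. The largest, on the plus strand at chr5:136626949-136676636, held 42 members. Its PPSs went from 16 before induction to 100 and 143. In replicates 1 and 2 its ssRNase calls numbered 8 and 11 at day 0, 64 and 70 at day 2, and 74 and 86 at day 4. Its dsRNase calls numbered 1 and 1 at day 0, 16 and 9 at day 2, and 77 and 74 at day 4. Of these members, 38 lay within Gm38722, a long noncoding RNA of RefSeq on the same strand (chr5:136632332-136675425). The highest-scoring of all members, 104.72, was among them. A pair of groups on the plus strand of chromosome 3, the closer of which began 158 nt past the annotated end of Mcl1 (an anti-apoptotic BCL2 family gene), held 57 members, of which 10 in the first group and 24 in the other were antisense to annotated genes. In the first, 7 members overlapped Gm52627 on the same strand in RefSeq. The first group had 67 PPSs before induction and 136 at day 4, and the other 53 and 146. The 3 groups on the minus strand of chromosome 6, the closest of which began 4096 nt past the end of Rybp (a Polycomb-associated protein), held 62. On their strand RefSeq has 2010109P13Rik, which 3 of these members overlapped, and Gm33448, which 2 members of one group and 8 of another overlapped. The chromosome 6 groups had 25, 41 and 6 PPSs before induction and 132, 126 and 52 at day 4. Over all members outside genes, 39.5% lay within 10000 nt past the end of a gene on the same strand, against 29.7% of such constant sites and 48.02% of such sites of day 4 only.

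The base content of the members was 27.7% A, 19.05% C, 28.3% G and 25.02% T, and G exceeded that of sites of day 4 only (25.9%) more than that of constant sites (27.8%). Repeat-masked bases made up 5.45% of a member on average. Short words known as targets of RNA-binding proteins were counted in the central 50 nt of the 6704 members of at least 50 nt, on the sense strand. GGGG, a word of hnRNP H and F, was present in 12.4% of members, 11.4% of constant sites and 8.95% of sites of day 4 only. The differences were 0.950 points (Newcombe 95% interval 0.0572 to 1.87) and 3.44 points (2.35 to 4.53). The first was 1.18 points among intron-only sites (-0.155 to 2.57) and 1.24 points among exonic sites (-0.00998 to 2.55), and both of these intervals held 0. The second was 2.83 points among intron-only sites and 3.27 points among exonic sites, and the reverse complement was present in 5.85% of members, 5.49% of constant sites and 6.10% of sites of day 4 only.

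The other words separated the groups little. GTGTG, a word of CELF proteins, was present in 8.28% of members against 7.03% of sites of day 4 only, a difference of 1.25 points (0.307 to 2.19), and AATAAA, the polyadenylation signal, in 1.43% against 2.25%, a difference of -0.815 points (-1.31 to -0.340). For TGTANATA, TATTTAT (AU-rich elements), TTTTTT (uridine-rich targets), TGCATG (RBFOX), ACTAAC (Quaking), GAAGAA (SR proteins), CCCTCC (poly(C)-binding proteins), CTCTCT (PTB) and CAGTGN (the loop of iron-responsive elements), the interval of the difference held 0 against constant sites and against sites of day 4 only. The same held for GTGTG and AATAAA against constant sites, and within intron-only and within exonic sites their intervals held 0 against sites of day 4 only as well. Among intron-only sites CTCTCT differed from sites of day 4 only by -0.511 points (-1.08 to -0.00274). Among exonic sites alone, CCCTCC was present in 1.13% of members and 0.606% of constant sites, a difference of 0.523 points (0.173 to 0.971), which, like that for CTCTCT, is 1 of the 48 comparisons made within intronic or exonic sites.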

How the data were processed

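PIP-seq libraries of MEL cells were processed by the authors, who trimmed reads with cutadapt 1.2.1, aligned them to mm10 with TopHat2 2.0.10 while keeping up to 10 alignments a read, collapsed duplicates, and called PPSs with a modified CSAR package at a false discovery rate of 5%. The deposited score of each PPS is the authors' enrichment of footprinting over structure-only coverage, summed over merged calls as its values show. How libraries were scaled is not given in the sources used here.

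The members, gene lists and words were chosen with earlier results of these data known. Overlaps were taken on the same strand, with classes from GENCODE M21 and sequence from RefSeq GRCm38. A site counted in every class it touched, and in 1 gene. All site ends lay within chromosome lengths. Named genes were the 10 protein-coding genes with the most members (without predicted-gene and RIKEN symbols), up to 4 per list by members and then by summed score, and the genes of the highest-scoring member of each class and nuclease group; sequences were the highest-scoring members of at most 300 nt inside a CDS, intron or noncoding exon. Some genes that this rule names are not reported here, but stay in all counts. Shares carry Wilson and differences Newcombe 95% intervals. No test over samples was made, since merged lists give no value per library but the presence of its calls. Overlap functions were tested on simulated data. Tables were handled with pandas 2.3.3 and numpy 2.4.6, sequence with pysam 0.24.0, intervals with scipy 1.17.1 and figures with matplotlib 3.10.9, under Python 3.11.15.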

Additional observations from a re-analysis of the deposited data

How the results depend on the processing

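No paired analysis was possible because the results come from no test, and values within each replicate's call sets stand in the report. Values below follow the order of the report and differences are in percentage points against constant sites; the cause of a move was not tested unless the setting itself removes sites. The CDS difference kept its sign under every setting that was run, and the intron and intron-only differences did too. Leaving out 1 replicate of 1 day at a time, the number of members ran from 4662 (without day 2 replicate 2) to 14197 (without day 4 replicate 2), with 11611 and 11375 without day 0 replicate 1 and 2 and 12670 without day 4 replicate 1. The CDS difference ran from -9.81 to -3.38, the 3′ UTR difference from -2.07 to 0.329 (reversed, without day 0 replicate 1), the intron difference from 0.775 to 4.21, the ssRNase-only difference from -0.303 to 5.26, the dsRNase-only difference from 1.73 to 9.42, the share in genes without a day 0 site from 2.02% to 3.40%, and the erythroid genes with a member from 70 to 99. The 2.02% comes from a setting without a day 0 replicate, where genes were still judged by the full day 0 list, and is no check. With no day 0 site allowed within 100 nt, the CDS, 3′ UTR and intron differences were -11.4, -4.69 and 7.51, the ssRNase-only and dsRNase-only differences 2.21 and -0.336 (reversed), and the share in genes without a day 0 site 4.29%. With a day 2 site of both replicates, there were 2811 members, the class differences were -7.50, -0.270 and 0.879, and the gene share 2.88%. At or above the median score there were 3155 members, and the intron, ssRNase-only and dsRNase-only differences were 2.35, -2.65 and -0.629 (reversed), with a gene share of 4.13%. Members taken from the day 2 list gave class differences of -7.17, -0.00858 and 0.523, nuclease differences of 7.53 and -0.240 (reversed) and a gene share of 2.56%. With sites of 20 to 40 nt kept the dsRNase-only difference was 3.38. Among sites of 41 to 100 nt the ssRNase-only difference was -2.39 and the gene share 2.87%. With 1 class a site by priority the 3′ UTR and intron differences were 0.582 (reversed) and 10.5. Chosen after seeing the data, the plus strand alone gave 3081 members, 3′ UTR, intron, ssRNase-only and dsRNase-only differences of -0.410, 0.336, -1.72 and 4.16, a gene share of 2.86% and 40 erythroid genes. The minus strand alone gave 3984 members, -2.71, 6.56, 2.40 and 1.11, and 39 erythroid genes. Without the 10 genes with the most members, also chosen after seeing the data, the intron difference was 2.37. The intron-only difference ran from 6.52 to 14.99 over all settings and the dsRNase-only difference against sites of day 4 only from -27.9 to -9.50. The other values of the quantities above moved by less than the main value's interval or, for counts, stayed within 1.5 times it.

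The lists limit every value here. They hold no reads, no depth and no RNA levels, the replicates of a day share merged coordinates, and absence from the day 0 list means only that no call was made. Copies such as Hbb-bs and Hbb-bt, Slc25a37 and Gm16867, and Apol11a and Apol11b share reads, and 193 members (2.73%) shared a 30-base stretch with another member over 1000 nt away. Of the gene list symbols, some found no match in the annotation used here and were left out.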
